A study of Mus musculus with 6 samples.

Results

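Neurotrophins, their receptors and other activity-regulated secreted or surface factors of synapses were examined as a set of 10 genes, *Bdnf*, *Ntf3*, *Ntrk2*, *Ntrk3*, *Nrn1*, *Vgf*, *Nptx1*, *Nptx2*, *Nptxr* and *Igf1*. The genes share a known role and were chosen by gene symbol with earlier results of these data known, and they are 10 of the 21667 named genes in each table. PolyA-selected RNA from the somatosensory cortex of 6 adult male mice on a mixed SVeV-129 and C57BL/6J background was sequenced, with 1 library per mouse. The 3 control mice were Mef2c fl/fl without Cre, and the 3 *Mef2c* cKO mice were Mef2c fl/fl with Emx1-Cre, so the floxed *Mef2c* alleles were common to both genotypes. In both genotypes replicate 1 was 14 weeks old and replicates 2 and 3 were 12 weeks old. Emx1-Cre is active from embryonic life in the lineage of cortical excitatory neurons and some glia, and most interneurons and microglia lie outside that lineage, so the bulk tissue mixed recombined and unrecombined cells. In such tissue, fewer cells of a type and less RNA per cell cannot be told apart. The comparison asks how the transcripts of these factors differ between a cortex that lost *Mef2c* in the Emx1 lineage and its control.

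Neurotrophins are secreted as precursors that are cut to mature ligands. The ligands bind Trk receptor tyrosine kinases on neurons, and neuronal firing raises the transcription of several of them, *Bdnf* above all, through calcium-responsive elements in their promoters. Neuronal pentraxins are secreted at excitatory synapses, where they gather AMPA receptors, and *Nptx2*, also called Narp, is an immediate early gene. *Nrn1*, also called Cpg15, and *Vgf* were both found as genes induced by activity or by neurotrophins.

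The values were read counts recovered from the deposited RPKM tables and divided by the sample total, giving CPM, the number of reads that a gene would have in a sample of 1000000 reads. Totals ran from 19326365 reads in *Mef2c* cKO replicate 2 to 54128334 in *Mef2c* cKO replicate 3. A gene was tested in limma when all mice of at least 1 genotype had a CPM above 0.5. It passed when the Benjamini-Hochberg adjusted p over all tested genes was under 0.05 and the log2 fold change, cKO minus control, was beyond 0.3 in either direction on the log2(CPM + 0.1) scale. *Mef2c* itself had 800.3, 771.8 and 800.2 CPM in the controls and 1231.3, 1276.3 and 1468.2 CPM in the cKO mice. A count over the whole gene does not show whether the floxed part is lost, so this higher level does not check the genotype labels. By western blot the paper reports MEF2C protein strongly reduced in cKO cortex. Of the close relatives, *Mef2d* rose in limma (log2 fold change 0.35 ± 0.05 SE, adjusted p = 0.00182) and *Mef2a* did not pass (0.16 ± 0.06, adjusted p = 0.0956). The paper, which used DESeq, reports neither as significantly altered, so the result for *Mef2d* differs from the paper's.

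Of the 10 genes, 9 were tested and 3 passed. *Nptx1* rose by 47.4%, *Nrn1* fell by 25.6% and *Nptx2* fell by 48.2%. Across the series 1997 of 14625 tested genes passed, which is 13.7%, with 5.88% higher and 7.77% lower in the cKO mice. The genotypes did not overlap in CPM for these 3 genes, which is also the case for 33.8% of all tested genes. Without control replicate 3, 6 of the 9 genes did not overlap, beside 41.6% of all tested genes, and without cKO replicate 2 there were 5, beside 43.7% of all tested genes. The 9 log2 fold changes were negative for 6 genes and positive for 3, with a median of -0.07 beside 0.008 over all tested genes. With 3 mice against 3, an exact two-sided permutation test of one gene cannot go below p = 0.1, the value reached by *Nptx1*, *Nrn1* and *Nptx2*.

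**Figure D1:**
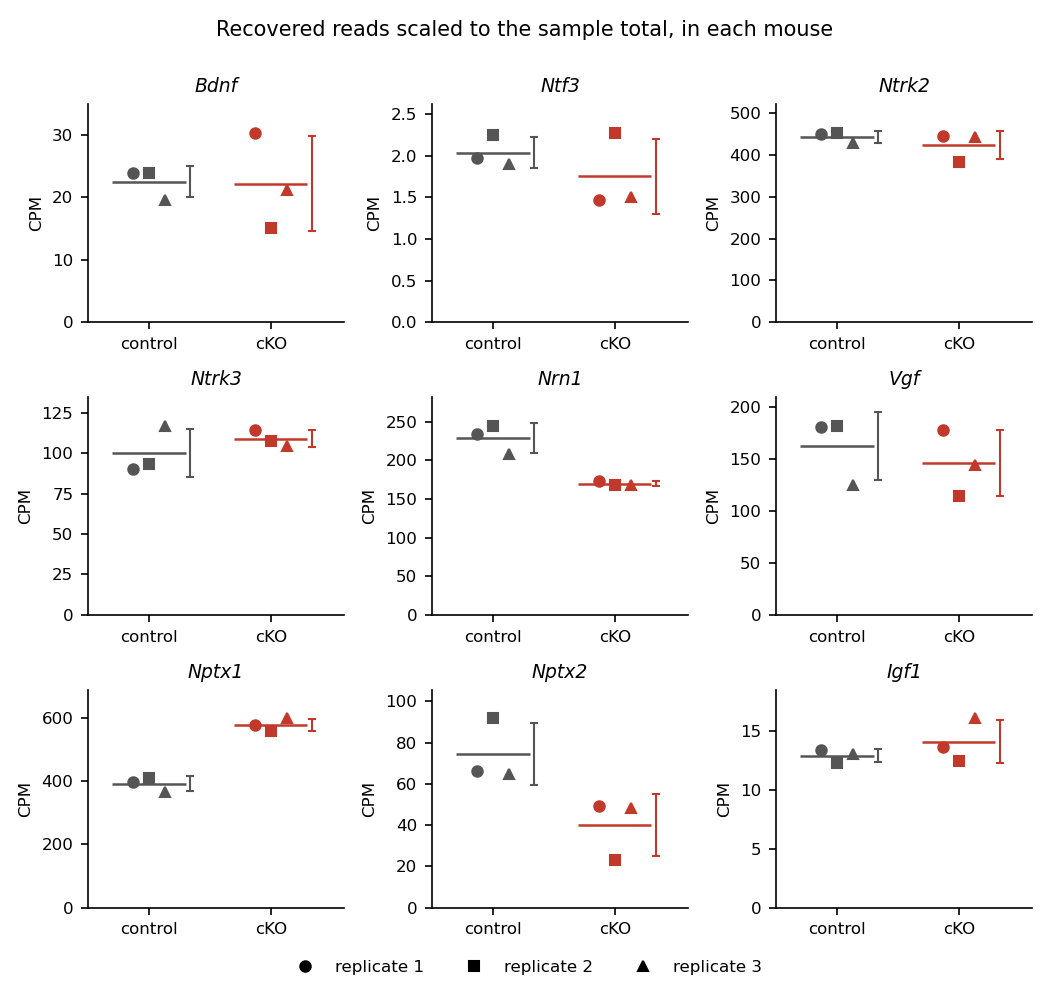
Recovered reads scaled to the sample total (CPM, vertical axes from 0) of the 9 tested genes in each of 3 control and 3 *Mef2c* cKO mice, with 1 point per mouse, the shape giving the replicate number, a line at the mean and a bar of 1 SD on either side. *Nptx1* lies higher in every cKO mouse, *Nrn1* and *Nptx2* lie lower in every cKO mouse, and the other 6 genes overlap between genotypes.

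The ligand *Bdnf* (chr2:109514857-109567204, plus strand, build NCBIM37, the same assembly as mm9) had 23.9, 23.9 and 19.6 CPM in control replicates 1, 2 and 3, and 30.3, 15.1 and 21.1 CPM in the cKO mice. The highest and the lowest of the 6 values were both cKO mice, replicates 1 and 2, and the genotypes overlapped. The means were 22.5 ± 2.48 CPM in control and 22.2 ± 7.67 CPM in cKO (SD, n = 3). On the log2 scale the fold change was -0.07 ± 0.21 (SE), and limma gave an adjusted p of 0.868. Its 95% confidence interval, from 0.683-fold to 1.33-fold, is wide, so the data do not show that the level was equal. *Bdnf* spread more among the cKO mice (2.01-fold from lowest to highest) than among the controls (1.22-fold), and the lowest count, 292 reads, carries a counting error of 5.85%. On the log2 scale the SD was 0.50 among cKO mice, against a median of 0.106 over all tested genes, and the difference in spread between genotypes was not tested.

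The mouse *Bdnf* gene is transcribed from several start sites, each with a promoter of its own, and a whole-gene count adds up all of them. RefSeq (GRCm38.p6) promoter windows, 250 bases before to 50 after the start, were at hand for 4 of the 10 genes, with 7 for *Bdnf*, 2 for *Ntf3*, 1 for *Ntrk2* and 1 for *Igf1*. These 11 windows were searched on both strands for the full cyclic AMP response element TGACGTCA, which no window held and 1.79% of all 32851 windows did. The shorter core CGTCA, which lies within the full element, was in 1 of the 11 windows and in 20.8% of all windows. The MEF2 element was in no window of the 4 genes and in 1.86% of all windows. Such a match is only a match of letters. The 1 window with this core is shown because *Bdnf* is the textbook activity-regulated gene of the set and its level varied most between mice among the ligands. It lies at chr2:109692186-109692485 on the plus strand (GRCm38.p6), in lower case with the core in capitals, the capitals starting 35 bases before the start of transcription.
Bdnf start site 3 of 7: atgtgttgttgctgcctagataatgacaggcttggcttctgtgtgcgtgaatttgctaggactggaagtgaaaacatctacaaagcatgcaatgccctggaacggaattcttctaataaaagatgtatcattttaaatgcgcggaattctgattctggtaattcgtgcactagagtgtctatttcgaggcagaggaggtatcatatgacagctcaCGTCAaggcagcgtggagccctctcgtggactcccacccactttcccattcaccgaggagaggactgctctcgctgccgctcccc

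*Ntf3* (chr6:126051431-126116762, minus strand), which encodes neurotrophin-3, the main ligand of TrkC, was the lowest of the tested ligands by CPM. It had 1.97, 2.25 and 1.90 CPM in the controls and 1.47, 2.28 and 1.51 CPM in the cKO mice. cKO replicates 1 and 3 lay below every control and replicate 2 lay above every control. The fit in limma gave a log2 fold change of -0.23 ± 0.20 (adjusted p = 0.502). The lowest count was 44 reads, with a counting error of 15.1%, as large as the fitted decrease of 14.8%.

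*Igf1* (chr10:87321010-87399792, plus strand), insulin-like growth factor 1, a survival and synapse factor made by interneurons and glia, had 13.4, 12.3 and 13.1 CPM in control and 13.7, 12.5 and 16.1 CPM in cKO mice. cKO replicates 1 and 3 were above all controls, by little in replicate 1, and replicate 2 lay inside the control range. Its log2 fold change was 0.11 ± 0.11 (limma adjusted p = 0.544), with a 95% interval from 0.913-fold to 1.28-fold.

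*Ntrk2* (chr13:58907957-59235331, plus strand), which encodes TrkB, the receptor of BDNF, had 450.6, 453.6 and 427.9 CPM in control and 444.7, 384.2 and 442.2 CPM in cKO mice. Replicate 2 of the cKO mice was the lowest of the 6, and the other two cKO mice lay within the control range. Its log2 fold change was -0.07 ± 0.07 (limma adjusted p = 0.559), with a 95% interval from 0.855-fold to 1.06-fold. The count adds the full-length receptor and the truncated forms that astrocytes make in abundance, which the tables do not separate.

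*Ntrk3* (chr7:85337248-85723294, minus strand), which encodes TrkC, varied more among the controls (log2 SD 0.21, beside a median of 0.102 over all tested genes), and had 90.0, 93.1 and 117.1 CPM in control and 114.6, 107.7 and 104.7 CPM in cKO mice. All 3 cKO values lay between the lowest and the highest control. A log2 fold change of 0.13 ± 0.10 was fitted (limma adjusted p = 0.42), with a 95% interval from 0.942-fold to 1.27-fold. Without control replicate 3, the highest control, the adjusted p was 0.0449 at a log2 fold change of 0.25, which is still inside the fold cut-off.

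*Nrn1* (chr13:36817494-36826346, minus strand), whose product neuritin is a GPI-anchored and secreted protein that promotes neurite growth and synapse maturation, had 234.2, 245.2 and 208.3 CPM in control and 173.3, 168.7 and 168.4 CPM in cKO mice. Every cKO mouse was below every control, and the 3 cKO mice were within 1.03-fold of each other. The mean fell from 229.2 ± 19.0 to 170.2 ± 2.72 CPM (SD, n = 3). The log2 fold change was -0.43 ± 0.07, lower in 3 of 3 mice, and the adjusted p from limma was 0.00227. With at least 3261 reads in each mouse, the counting error was 1.75% at most.

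*Vgf* (chr5:137506165-137509221, plus strand), the precursor of several neuropeptides and a target of BDNF signalling, had 181.0, 182.0 and 125.0 CPM in control and 178.1, 114.5 and 144.5 CPM in cKO mice. Each genotype held high and low mice, and only cKO replicate 2 fell below the control range. For the genotypes, limma gave a log2 fold change of -0.16 ± 0.18 (adjusted p = 0.605), which was 0.0 without cKO replicate 2.

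The pentraxins differed most. *Nptx1* (chr11:119400033-119409067, minus strand), the neuronal pentraxin that, unlike *Nptx2*, is not an immediate early gene, had 398.4, 411.4 and 366.8 CPM in control and 577.1, 558.0 and 598.1 CPM in cKO mice. Every cKO mouse was above every control, with little spread in either genotype. The mean rose from 392.2 ± 22.9 to 577.7 ± 20.0 CPM (SD, n = 3). The log2 fold change was 0.56 ± 0.06, higher in 3 of 3 mice, and the adjusted p from limma was 3.0e-04.

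*Nptx2* (chr5:145306756-145318347, plus strand), the activity-induced pentraxin that is delivered to excitatory synapses on parvalbumin interneurons, had 66.4, 91.7 and 64.8 CPM in control and 49.1, 22.9 and 48.5 CPM in cKO mice. All 3 cKO mice were below every control, but the mice of each genotype differed by more than for *Nptx1*, with cKO replicate 2 at 46.8% of the mean of the other cKO mice. The mean fell from 74.3 ± 15.1 to 40.2 ± 15.0 CPM (SD, n = 3). The log2 fold change was -0.95 ± 0.27, lower in 3 of 3 mice, and the adjusted p from limma was 0.0408. Without cKO replicate 2 the decrease was smaller and still passed (-0.59, adjusted p = 0.0292). Leaving out control replicate 1, 2 or 3 gave adjusted p-values of 0.0756, 0.134 and 0.0687, with log2 fold changes of -1.02, -0.79 and -1.04, and the call was lost each time.

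Per kilobase of exon, *Nptx1* exceeded *Nptx2* by 2.93, 2.19 and 2.77 times in the controls and by 5.75, 11.9 and 6.03 times in the cKO mice. Since *Nptx1* was higher and *Nptx2* lower in every cKO mouse, this separation follows from the values above and adds no support to them. The mean ratio was 2.63 ± 0.39 in control and 7.90 ± 3.49 in cKO mice (SD, n = 3), or 5.89 in the cKO mice without replicate 2. The other 2 ratios computed overlapped between genotypes. *Ntrk2* over *Ntrk3* was 1.57 ± 0.26 in control and 1.35 ± 0.11 in cKO mice, and *Ntrk2* over *Bdnf* was 7.71 ± 0.65 in control and 7.89 ± 2.10 in cKO mice.

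*Nptxr* (chr15:79616783-79635196, minus strand), the membrane-bound partner of the secreted pentraxins, was listed at 0 in all 6 mice. In the gencode annotation of NCBIM37, the gene *Npcd* on the same strand shares 81.5% of the exonic bases of *Nptxr*, and *Npcd* had 617 reads over the 6 mice. Counting programs such as HTSeq commonly leave out reads that overlap more than one gene, and whether this gave the 0 was not tested. No level or change can therefore be given for *Nptxr*.

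**Figure D2:**
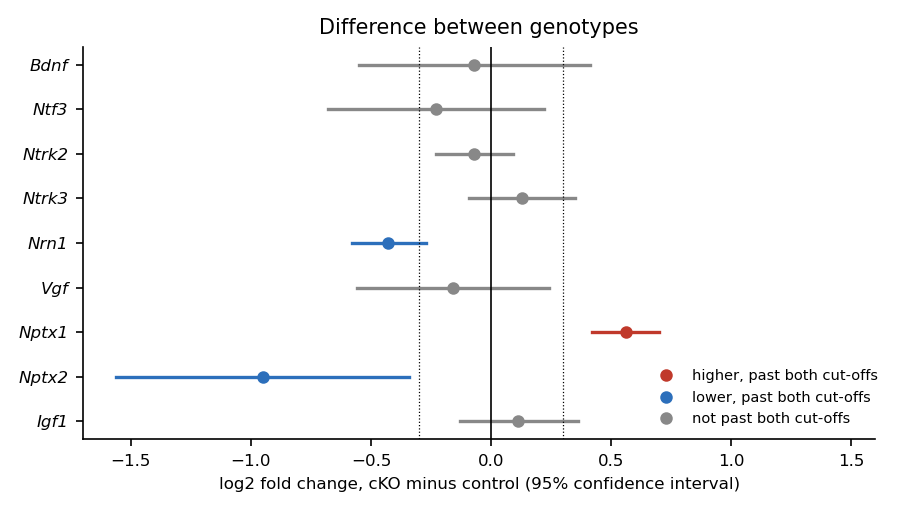
Log2 fold change (cKO minus control, horizontal axis) of the 9 tested genes with its 95% confidence interval, from 3 mice per genotype, and dotted lines at the fold cut-off of 0.3 in either direction. *Nptx1* lies above 0, *Nrn1* and *Nptx2* lie below 0, and the intervals of the other 6 genes include 0.

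Levels can be compared between genes only per length, so CPM was divided by the exonic length of each gene in the gencode annotation of NCBIM37, which joins the exons of all its transcripts and may differ from the authors' lengths. In control cortex *Nrn1* was highest at 129.8 ± 10.7 CPM per kilobase (SD, n = 3). It was followed by *Nptx1* at 75.2 ± 4.39 and *Vgf* at 63.7 ± 12.8 CPM per kilobase, whose ranges overlapped. *Ntrk2* (29.4 ± 0.93) and *Nptx2* (29.1 ± 5.91) also overlapped and stood above *Ntrk3* (19.1 ± 2.83). The ligands were the lowest, with *Bdnf* at 3.84 ± 0.42, *Ntf3* at 1.43 ± 0.13 and *Igf1* at 1.31 ± 0.0583 CPM per kilobase, and the ranges of *Ntf3* and *Igf1* overlapped. In the cKO mice *Nptx1* took the first place, at 110.7 ± 3.84 CPM per kilobase, above *Nrn1* at 96.3 ± 1.54. *Nptx2* fell below *Ntrk3*, at 15.7 ± 5.87 against 20.8 ± 0.96 CPM per kilobase. All neighbours in the cKO order were apart except *Igf1* and *Ntf3*.

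**Figure D3:**
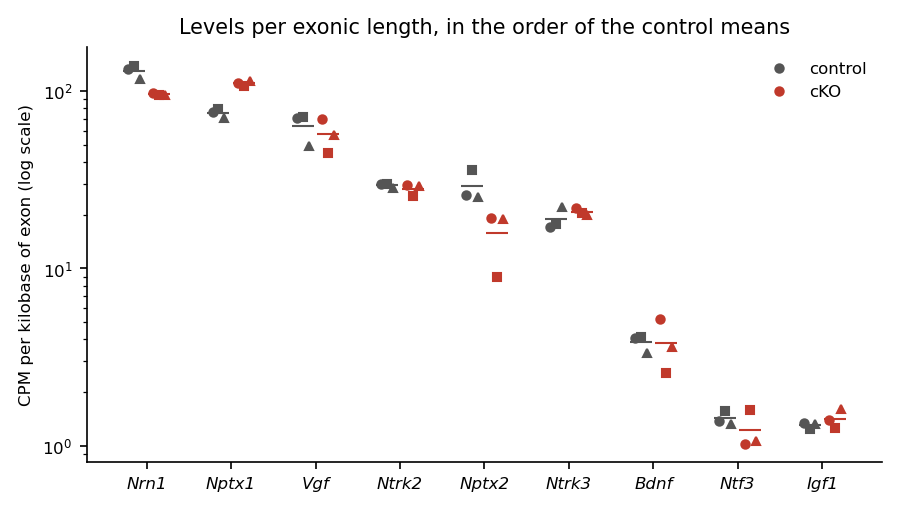
CPM per kilobase of exon (vertical axis, log scale) of the 9 tested genes in each mouse, with 3 control and 3 cKO points per gene, the shapes giving the replicate number, and lines at the means. *Nrn1* leads in control and *Nptx1* in cKO mice, and the ligands *Bdnf*, *Ntf3* and *Igf1* lie lowest in both.

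The genes that act with these factors were taken from 8 lists of 150 further genes, of which 130 were tested and 33 passed (25.4%, beside 13.7% of all tested genes), 18 higher and 15 lower. The lists were also chosen with earlier results of these data known, so this share is a description. Their median log2 fold change was -0.04. All adjusted p-values below are from limma and over all tested genes.

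Among the other neurotrophin ligands and receptors, 3 of 8 tested genes passed, 1 higher and 2 lower, with a median log2 fold change of -0.05. All of these belong to the sortilin-related receptors, which bind proneurotrophins and sort receptors inside cells. *Sorcs1* fell from 70.8, 71.3 and 78.1 CPM in control to 44.9, 54.4 and 47.0 CPM in cKO mice (log2 fold change -0.59, adjusted p = 0.0011). *Sorcs2*, a co-receptor for proBDNF, fell by less (-0.32, adjusted p = 0.0335), and *Sorcs3* rose (0.34, adjusted p = 0.0476). *Sort1* (0.0, adjusted p = 0.972) and *Sorl1* (-0.07, adjusted p = 0.725) of the same family had more reads and did not pass. Both are named here after their values were seen.

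Of the adaptors and cofactors of Trk signalling, 3 of 23 tested genes passed, with a median of -0.09. *Slitrk5*, a membrane partner of TrkB, rose from 83.1, 79.4 and 77.1 CPM to 104.1, 104.4 and 119.4 CPM (0.45, adjusted p = 0.00196). *Crkl*, an adaptor protein, also rose (0.34, adjusted p = 0.0222), and *Ndfip1*, an adaptor of ubiquitin ligases, fell (-0.34, adjusted p = 0.00928). Among the proteases and inhibitors that process proneurotrophins, 2 of 11 passed and both rose, with a median of 0.04. They were *Pcsk6*, a proprotein convertase (0.32, adjusted p = 0.041), and *Plg*, which encodes plasminogen and stayed under 1 CPM in every mouse (1.16, adjusted p = 0.033).

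The granins and the enzymes that process prohormones, the family and machinery around *Vgf*, had 4 of 13 tested genes past both cut-offs, all higher, and a median of 0.16. Another 2 genes of the list had an adjusted p under 0.05 inside the fold cut-off and were lower, *Scg5* (-0.27, adjusted p = 0.0118) and *Pcsk2* (-0.22, adjusted p = 0.0248), named here after their values were seen. *Chgb*, chromogranin B, rose from 267.8, 289.8 and 257.8 CPM in control to 476.9, 407.9 and 394.2 CPM in cKO mice (0.65, adjusted p = 6.0e-04). The vesicle-priming factor *Cadps2*, which takes part in BDNF release, also rose (0.61, adjusted p = 0.00117). Carboxypeptidase E, *Cpe*, rose from 2630.8, 2671.3 and 2625.8 CPM to 3605.8, 3173.1 and 3493.4 CPM (0.37, adjusted p = 0.00763), and the amidating enzyme *Pam* rose by a like amount (0.38, adjusted p = 0.00908). *Vgf* itself, with overlapping genotypes, was not among them.

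The list of pentraxin partners held the AMPA receptor subunits *Gria1* to *Gria4* and other genes. Of its 8 tested genes 3 passed, all of them AMPA receptor subunits, and the median over the 8 was 0.06. *Gria1* rose from 253.3, 300.4 and 290.6 CPM in control to 477.4, 400.2 and 439.9 CPM in cKO mice (0.64, adjusted p = 8.2e-04). *Gria3* rose (0.35, adjusted p = 0.0095). *Gria4*, the subunit that *Nptx2* is known to gather on parvalbumin interneurons, fell from 209.0, 211.9 and 203.3 CPM to 155.2, 180.8 and 167.5 CPM (-0.31, adjusted p = 0.01). *Gria2*, named here after its values were seen, was higher inside the fold cut-off (0.23, adjusted p = 0.0438). Thus *Nptx1*, *Gria1*, *Gria3* and, by less, *Gria2* were higher and *Nptx2* and *Gria4* lower in the cKO mice. The call of *Nptx2* was lost when any control mouse was left out, *Gria4* lay just beyond the fold cut-off, and a link between these differences was not tested.

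In the IGF system around *Igf1*, 5 of 16 tested genes passed, 2 higher and 3 lower, with a median of -0.01. The binding protein *Igfbp4* fell from 105.1, 104.7 and 94.4 CPM in control to 63.5, 53.2 and 55.1 CPM in cKO mice (-0.83, adjusted p = 1.4e-04). *Pappa*, a protease that cuts IGFBP4, fell (-1.04, adjusted p = 0.00667), while its relative *Pappa2* rose from 1.35, 1.64 and 1.57 CPM to 8.52, 4.76 and 8.20 CPM (2.12, adjusted p = 2.2e-04). *Stc1*, a stanniocalcin that inhibits pappalysins, rose (0.91, adjusted p = 0.00278).

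The list of other secreted neurotrophic factors and their receptors had 10 of 32 tested genes past both cut-offs, 2 higher and 8 lower, with a median of -0.02. The hepatocyte growth factor receptor *Met* fell from 11.1, 11.2 and 10.7 CPM in control to 1.28, 1.19 and 1.18 CPM in cKO mice (-3.08, adjusted p = 1.8e-06), and its ligand *Hgf* fell as well (-1.67, adjusted p = 1.7e-04). Neuregulin 1, *Nrg1*, fell (-1.15, adjusted p = 1.3e-04), and so did *Gfra2*, the receptor of neurturin (-0.70, adjusted p = 1.9e-04).

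**Figure D4:**
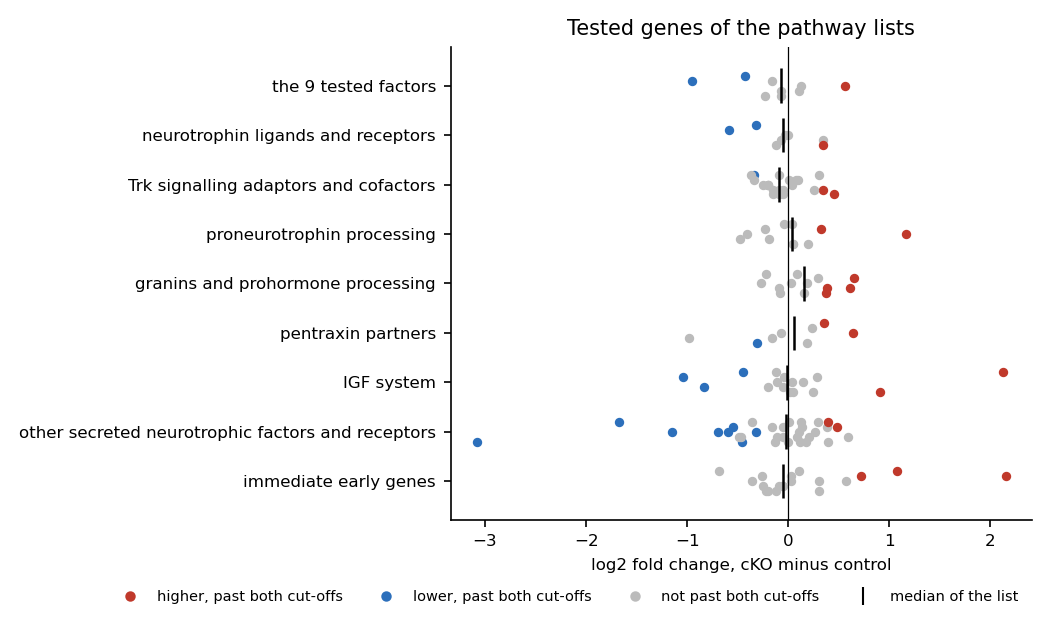
Log2 fold change (cKO minus control, horizontal axis) of each tested gene in 8 pathway lists, with the 9 tested factors in the top row, 1 point per gene and a line at the median of each list. The medians lie between -0.09 and 0.16, and 33 list genes pass both cut-offs.

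Since several of these factors follow neuronal activity, the immediate early genes were read beside them. Of 19 tested immediate early genes 3 passed, all higher, and the median was -0.05. *Nr4a3* rose from 9.97, 5.12 and 7.72 CPM in control to 40.8, 27.2 and 32.1 CPM in cKO mice (2.15, adjusted p = 2.3e-04). *Fosl2* rose (1.08, adjusted p = 1.1e-04), and *Junb* rose (0.72, adjusted p = 0.0481). The summed level of the 20 genes was 1025.2, 829.4 and 976.8 CPM in control and 1247.5, 808.4 and 880.4 CPM in cKO mice. cKO replicate 1 was the highest of the 6 mice in this sum and in *Bdnf*, and cKO replicate 2 was the lowest in both. The other mice were not in the same order, as control replicate 2 was the second lowest in the sum and shared the second highest *Bdnf* level, and control replicate 3 was the third highest in the sum and the second lowest in *Bdnf*. The largest part of the sum was *Homer1*, named here after its values were seen. It had 305.6, 236.3 and 224.8 CPM in control and 281.3, 169.4 and 224.7 CPM in cKO mice. Without *Homer1*, control replicate 2 and not cKO replicate 2 would be the lowest in the sum.

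Markers of cell types were read in the same way. Of 20 markers of pyramidal neurons 12 passed, 4 higher and 8 lower, with a summed level of 7183.9 to 8357.1 CPM in control and 7109.1 to 8124.7 CPM in cKO mice. The 3 with the smallest adjusted p were the upper-layer genes *Cux2* (-1.74, adjusted p = 2.4e-06) and *Rasgrf2* (-1.96, adjusted p = 3.2e-06) and the layer 4 gene *Rorb* (-1.74, adjusted p = 5.7e-06). Among 20 interneuron markers 5 passed, 4 higher and 1 lower. The summed level of this list was 1274.9 to 1358.9 CPM in control and 1425.0 to 1589.0 CPM in cKO mice. *Pvalb*, which marks the cells that *Nptx2* synapses contact, was the 1 that fell (-0.80, adjusted p = 3.0e-04). It went from 62.7, 57.2 and 60.9 CPM in control to 31.5, 39.3 and 33.5 CPM in cKO mice. *Cck* (0.82, adjusted p = 3.8e-04) and *Npy* (0.54, adjusted p = 0.0248) were the next by adjusted p and rose. *Cck* alone went from 241.0, 272.9 and 242.7 CPM in control to 470.1, 485.0 and 382.3 CPM in cKO mice. Without *Cck* the summed levels of the interneuron list overlap between genotypes. *Gad1* (-0.26), *Gad2* (0.16) and *Slc32a1* (0.04), named here after their values were seen, did not pass. Oligodendrocyte markers had 5 of 15 higher (summed level 3490.6 to 5615.8 CPM in control and 5553.4 to 7111.8 CPM in cKO mice). The first by adjusted p were *Cldn11* (0.77, adjusted p = 0.00424), *Olig1* (0.39, adjusted p = 0.0105) and *Olig2* (0.39, adjusted p = 0.0153). Astrocyte markers had 2 higher and 1 lower of 15 (5162.6 to 5474.0 and 4605.4 to 4877.6 CPM). *Aqp4* (0.73, adjusted p = 2.9e-05) and *Gfap* (1.37, adjusted p = 3.0e-04) rose, and *Aldh1l1* fell (-0.39, adjusted p = 0.00662). Microglial markers (582.4 to 916.6 and 451.3 to 704.5 CPM) and vascular markers (377.6 to 416.5 and 357.2 to 393.6 CPM) had no gene past the cut-offs in limma. In each list 3 of 15 had an unadjusted p under 0.05, beside 4165 of all 14625 tested genes.

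Markers of neighbouring regions were also read. Striatal markers summed to 215.7, 274.2 and 195.9 CPM in control and 434.3, 214.9 and 391.4 CPM in cKO mice, and 2 of 10 tested, *Drd1* and *Penk*, rose. Replicate 2, the lowest of the cKO mice in this sum, was also the lowest of the 6 mice for *Bdnf*, *Ntrk2*, *Vgf* and *Nptx2*. Dentate gyrus markers had 1 gene higher and 3 lower of 8 (208.8 to 233.7 and 81.0 to 108.1 CPM). By smallest adjusted p, *Npnt* fell (-2.79, adjusted p = 1.8e-06), *Tdo2* rose (3.36, adjusted p = 2.0e-05) and *Calb1* fell (-1.41, adjusted p = 3.8e-04). Most of the dentate sum was *Calb1*, with means of 153.6 CPM in control and 59.0 CPM in cKO mice. The other 4 did not pass, among them *Prox1* (means of 8.17 and 9.57 CPM), named here after its values were seen. The sum therefore does not measure dentate tissue. Of 8 tested choroid plexus and meningeal markers 1 rose (314.8 to 434.2 and 362.2 to 667.5 CPM), *Dcn* (1.97, adjusted p = 0.00923). No marker in the 9 lists was at 0 in every mouse. The part of these marker differences in the results for *Nptx1*, *Nptx2* and *Nrn1* was not tested.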

How the data were processed

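The authors aligned reads from polyA-selected, directional libraries to mm9 (TopHat, Bowtie), assigned them to genes (HTSeq, UCSC mm9 genes) and deposited RPKM values, 1 table per mouse. Versions are not given in the sources used here. The RPKM tables were made with lists of lengths that repeat down the rows and differ between mice, so the same gene was divided by a different length in each mouse and the deposited values cannot be compared between mice. Each value is a whole number of reads times one step. The lists (65 to 296 rows long) and the sample totals were found from these steps, and whole counts were recovered for 99.91% to 100.0% of the values above 0, within 0.0034 reads of a whole number. The recovered counts added up to 99.99% of each total. This method was chosen after seeing the data. Of 21667 named genes, 3324 were at 0 in every mouse. The 92 rows without a name held 0.0575% to 0.0853% of reads and were left out, and 40 rows above 0 (0.22%) had no count.

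Counts were divided by the sample totals (CPM), and no count model was used, the counts being rebuilt from RPKM. log2(CPM + 0.1) was fitted in limma 3.58.1 (R 4.3.3; lmFit and eBayes with a variance trend) over 14625 genes, each with a recovered value in 2 or more mice of each genotype. The fit and the recovery were tested on simulated data. Other steps used Python 3.11.15 (scipy 1.17.1, pandas 2.3.3, numpy 2.4.6) and matplotlib 3.10.9 for the plots. Samples were grouped by their labels. Libraries of 1 genotype correlated at 0.992 to 0.995 (Pearson's r over genes, which are not independent replicates), and those of different genotypes at 0.978 to 0.981. The 10 genes and all lists were chosen with earlier results of these data known. Beyond the 10 genes and the *Mef2* genes, up to 4 genes per pathway list and up to 3 per marker list that passed are named, by smallest adjusted p. Genes of these lists named outside this rule are marked as named after their values were seen. Alternatives were the deposited RPKM, 2 pseudocounts, 2 filters, 2 fold cut-offs, another scaling, no variance trend, voom weights, a replicate block, the 12-week-old mice alone and each mouse left out. Coordinates and lengths are from gencode on NCBIM37 (mm9).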

Additional observations from a re-analysis of the deposited data

How the results depend on the processing

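Across the 15 other settings on recovered counts, *Nptx1* (log2 fold change 0.51 to 0.59) and *Nrn1* (-0.49 to -0.38) passed each time, and *Nptx2* (-1.21 to -0.59) passed in 8. Its adjusted p in limma was 0.0535 without a filter on low values, 0.106 without a variance trend, 0.0812 with the replicate block and 0.0661 in the 12-week-old mice alone. Deviations of same-numbered mice from their genotype means correlated at -0.176, -0.109 and -0.082, so no pairing by replicate number was seen. With 3 mice per genotype these correlations cannot show whether mice were paired by litter. The paper compares cKO mice with Cre-negative littermates, and the labels do not give the litters. With the replicate block 1695 genes, 25 list genes and 2 of the 9 factors passed, and *Nptx2* was the 1 of the factors whose call it changed. Leaving out each mouse in turn moved *Bdnf* between -0.33 and 0.17 and *Vgf* between -0.34 and 0.0, the upper value of each being without cKO replicate 2, and neither passed. Leaving out each mouse gave 1657 to 1869 genes, 25 to 32 list genes and 2 to 3 of the 9 factors past the cut-offs, and 3 to 6 of the 9 without overlap (6 without control replicate 3, 5 without cKO replicate 2). A fold cut-off of 1 on the log2 scale left 472 genes, 8 list genes and 0 of the 9 factors. In the main fit 3 of the 9 factors had an unadjusted p under 0.05, beside 4165 of all 14625 tested genes.

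In the deposited RPKM, whose lengths differ between mice, limma passed 14 of 7974 genes, 0 of 77 list genes and 0 of 6 factors. An unadjusted p under 0.05 was reached by 677 of the 7974 genes, 7 list genes and 0 factors, and 1 factor did not overlap. There *Bdnf* was 0.71, *Ntrk3* -0.20, *Nrn1* 0.41, *Vgf* 1.06 and *Nptx1* -0.19, each reversed. Depth limits *Ntf3* most, with 44 to 111 reads per mouse.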
